A study of Mus musculus with 36 samples.

Results

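The corpus callosum of MSA mice was set against that of control mice, without drug, across all genes with sufficient counts. The libraries were chosen by genotype, region and diet in their titles, which gave 5 of the 36 libraries in the series, 2 from MSA and 3 from control mice. MSA animals carried the MBP29-hα-syn transgene, in which the promoter of myelin basic protein, a gene of oligodendrocytes, drives human α-synuclein. That promoter aims the transgene at oligodendrocytes. As a model of multiple system atrophy the line is therefore built around α-synuclein in those cells. Whether the transgene acts in other cells was not tested. Controls are labelled CTRL, and the protocol speaks of WT animals. All 5 libraries are from males on standard AIN-76A chow, which the diet protocol started at 4 weeks of age and continued for 12 weeks, and the RNA came from frozen archived tissue. Further groups are used for comparison, namely 2 MSA and 2 control callosum libraries on chow with the CSF1R inhibitor PLX5622 (1200 mg/kg), and the untreated cortex and striatum of both genotypes. Cortex and striatum on PLX5622 enter only where libraries of all groups are used. Microglia sorted from mice of 16 weeks make up 3 MSA and 3 control libraries, whose animals are labelled MBP29_homo in the MSA group and MBP29_het in the control group, while the protocol speaks of WT mice. Whether those controls carry the transgene is therefore not settled by the labels.

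The corpus callosum is the main white matter tract of the forebrain, and most of its glia are oligodendrocytes, which wrap axons in myelin. It forms the roof of the lateral ventricles, so the choroid plexus, the secretory epithelium that makes cerebrospinal fluid, lies close to it, and the meninges lie along its margins. Microglia and astrocytes of white matter are known to change their transcripts when myelin or oligodendrocytes are disturbed. In bulk tissue, fewer cells of a type and less RNA per cell cannot be told apart.

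Counts assigned to genes were 28.6 and 4.59 M (1 M is 1e+06 counts) in the MSA libraries and 9.26, 7.31 and 21.7 M in the control libraries. Between 66.5 and 76.6% of each library's total was assigned. Within a group the libraries differed beyond counting error (chi-square over its degrees of freedom was 18.4 to 37.1), and no library repeated another. Whether each library is a separate animal is not stated in the labels. The p-values measure the spread between libraries within groups, estimated over all 9 callosum libraries of both diets. Of 15881 genes tested with edgeR's quasi-likelihood test, 51 passed a Benjamini-Hochberg adjusted p of 0.05, which is 0.321% of them. MSA was higher in 50 (0.315%) and lower in 1 (0.0063%), and the median log2 change over all tested genes was 0.01.

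Promoters of 3 genes are shown, each 250 bases before to 50 bases after the start. Among genes that passed, Fgl2 had the strongest rise outside the choroid plexus set and Anln was the 1 lower gene. Hapln2 is a myelin gene that was lower with Anln in striatum, chosen after its values were seen. Capitals mark ACAATG, the core recognised by the oligodendrocyte factor SOX10, searched on both strands. The sequences are from RefSeq on GRCm38.p6 and run 5′ to 3′ on the gene's strand, at chr5:21372423-21372722 (plus strand) for Fgl2, chr9:22389157-22389456 (minus strand) for Anln and chr3:88027462-88027761 (minus strand) for Hapln2.
Fgl2: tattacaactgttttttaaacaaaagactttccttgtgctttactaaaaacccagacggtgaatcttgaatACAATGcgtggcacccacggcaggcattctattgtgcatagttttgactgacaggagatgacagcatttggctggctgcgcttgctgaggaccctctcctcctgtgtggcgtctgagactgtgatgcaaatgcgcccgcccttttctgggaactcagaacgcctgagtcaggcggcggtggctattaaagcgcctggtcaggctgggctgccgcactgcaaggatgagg
Anln: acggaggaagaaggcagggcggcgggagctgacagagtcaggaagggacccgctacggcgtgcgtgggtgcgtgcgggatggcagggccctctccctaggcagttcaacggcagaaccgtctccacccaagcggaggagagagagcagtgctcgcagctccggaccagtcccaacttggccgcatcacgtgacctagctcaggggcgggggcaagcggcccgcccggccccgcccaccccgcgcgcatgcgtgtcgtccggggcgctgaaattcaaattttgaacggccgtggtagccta
Hapln2: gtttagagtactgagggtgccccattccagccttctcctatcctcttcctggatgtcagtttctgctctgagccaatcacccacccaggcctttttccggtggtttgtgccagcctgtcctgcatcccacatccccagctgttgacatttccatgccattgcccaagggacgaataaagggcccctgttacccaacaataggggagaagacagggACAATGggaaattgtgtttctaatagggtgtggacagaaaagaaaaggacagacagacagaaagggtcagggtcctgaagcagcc
The Fgl2 window holds 1 match, which begins 179 bases before the start, and the Hapln2 window holds 1, which begins 35 bases before it. The Anln window holds none. Among all 32851 RefSeq promoter windows 12.6% hold the motif. A match is a description of the letters and not a binding site.

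Choroid plexus genes made up the largest group among those that rose. Of the 23 listed markers, all of them tested, 19 were higher and all 23 stood above every control library, against 17.2% of all tested genes with both MSA libraries above all controls. Their median log2 change was 3.53, beside 0.01 over all tested genes. The list summed to 11688 and 4900 CPM (counts scaled to 1e+06 per library) in the MSA libraries, against 913, 650 and 986 CPM in the control libraries. MSA library 1 thus carried more choroid plexus RNA than MSA library 2 (median log2 difference of 1.04 over the list), and both carried more than any control.

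Ttr, which encodes the thyroid hormone carrier transthyretin and is a major product of choroid plexus epithelium, had 7594 and 2913 CPM in MSA callosum, against 217, 236 and 304 CPM in control callosum. Its log2 change was 4.40 ± 0.41 (SE, edgeR, adjusted p = 0.00256). Kl, which encodes the FGF23 co-receptor klotho, had 279.8 and 129 CPM in MSA callosum, against 17.8, 16.1 and 15.8 CPM in control callosum, a log2 change of 3.64 ± 0.31 (adjusted p = 0.0019). Neither gene's groups overlapped. The epithelium's transporters rose with them. These included the bicarbonate transporter gene Slc4a5 (log2 change 4.67), the water channel gene Aqp1 (4.63) and the potassium channel genes Kcnj13 (4.31) and Kcne2 (3.77). The folate receptor gene Folr1 (3.93) and the coagulation factor gene F5 (4.33) rose as well. The smallest change among the 23 was that of Enpp2, which makes lysophosphatidic acid and is also expressed by oligodendrocytes, at 2.08 ± 0.37 (adjusted p = 0.057). Otx2, a transcription factor of the epithelium, was at 41.9 and 12.0 CPM in MSA callosum and at 3.35, 4.24 and 4.14 CPM in control callosum, and it also missed the threshold (adjusted p = 0.0631). The OTX2 core TAATCC, searched on both strands, lies in the promoter window of 1 of 15 matched called members (6.67%). Among all genes with a promoter window the share is 8.14%.

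**Figure D1:**
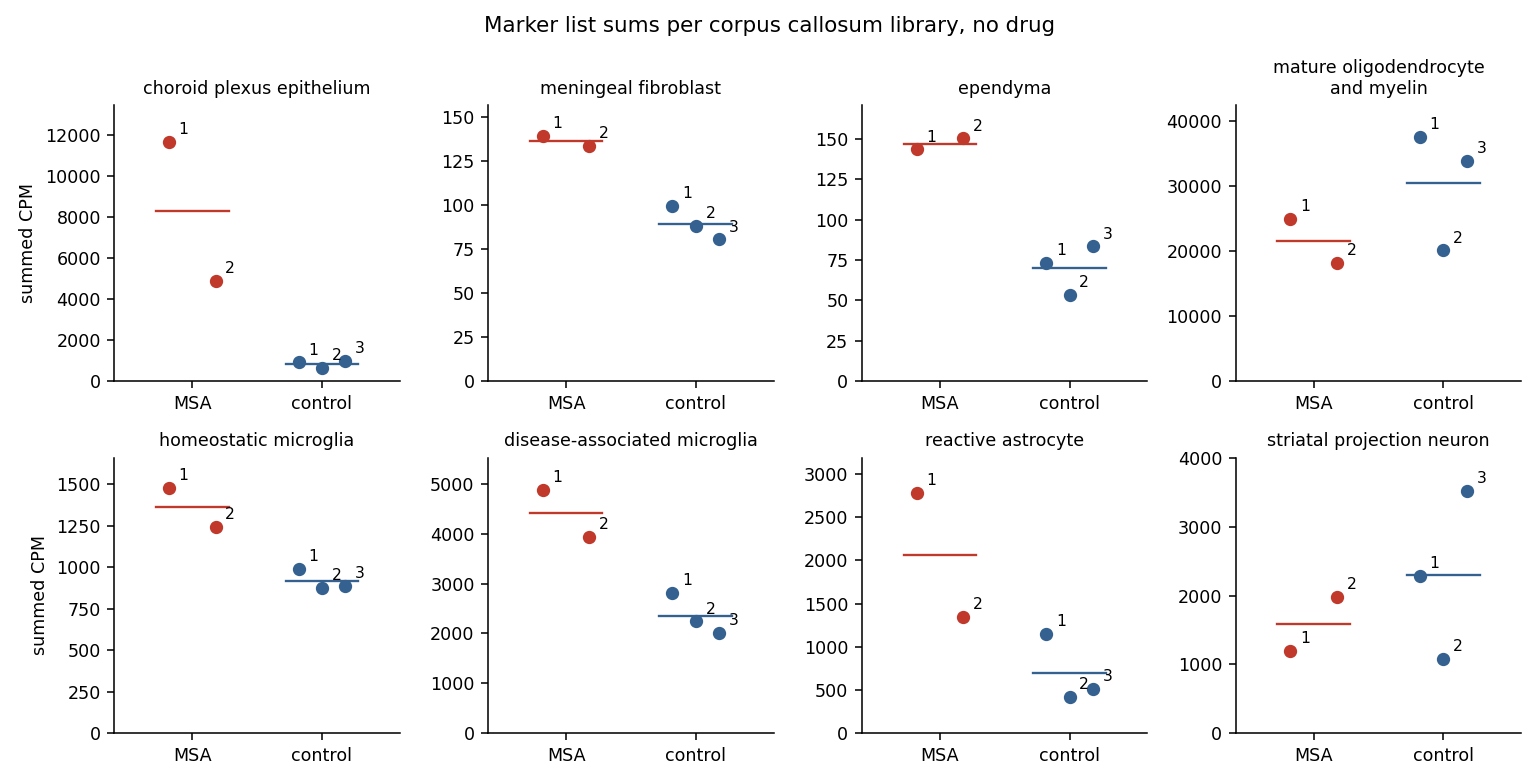
Summed CPM of 8 marker lists in each callosum library without drug, with MSA left (red) and control right (blue); numbers are library numbers, short lines are group means and every axis starts at 0. The choroid plexus sum is 11688 and 4900 CPM in MSA libraries and at most 986 CPM in controls, while the myelin and striatal neuron sums of the groups overlap.

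Among meningeal fibroblast genes the changes were smaller. None of 20 passed (median log2 change 0.60), and 3 had an unadjusted p under 0.05 with MSA higher, beside 5.12% of all tested genes. Their sum was 139.6 and 134 CPM in MSA callosum against 99.5, 88.3 and 80.6 CPM in control callosum. The collagen gene Col1a2 stood farthest from the controls, with 17.1 and 11.1 CPM in MSA callosum against 5.73, 4.65 and 2.25 CPM in control callosum (log2 change 1.80 ± 0.43, adjusted p = 0.2). Ependymal genes, which mark the ciliated lining of the ventricles, summed to 144 and 150.4 CPM in MSA callosum against 73.4, 53.6 and 83.5 CPM in control callosum, and 0 of 15 passed, though 8 had an unadjusted p under 0.05 (median 1.07). Endothelial genes likewise had 0 of 14 past the threshold (median 0.78), with 4 at an unadjusted p under 0.05. DESeq2 called 1 of 20 meningeal, 2 of 15 ependymal and 1 of 14 endothelial genes higher, beside 1.01% of all genes tested. Both MSA libraries lay above all controls in 9 meningeal, 8 ependymal and 7 endothelial genes (background 17.2%). They lay below all controls in 1, 0 and 1 (background 18%).

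Genes that vary with choroid plexus RNA were then separated from the rest using other libraries. For each gene, a correlation (Pearson's r) was taken between its log2 CPM and the mean of the choroid plexus markers, the gene itself left out, over the 25 bulk libraries outside this comparison and with group means removed. Genes with r of at least 0.7 are called choroid plexus followers, and meningeal followers were defined likewise. These libraries include several tissues and 2 diets, and r is a description. Of all tested genes 70 (0.441%) followed choroid plexus and 41 (0.258%) followed meninges. Choroid plexus followers were 29 of the 51 genes that passed, 1 more followed meninges (the sulfate transporter gene Slc13a4, with r of 0.76 to meninges and 0.74 to choroid plexus), and 21 followed neither.

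The followers reached beyond the marker list. Of the 29, 13 were listed markers and 16 were not, 1 of them without a standard symbol. Among these 16 were the growth factor gene Igf2 (r of 0.83), with 458 and 211 CPM in MSA callosum against 48.5, 51.1 and 59.3 CPM in control callosum. Its binding protein gene Igfbp2 (r of 0.79) had 272 and 125 CPM in MSA callosum against 18.5, 34.9 and 24.7 CPM in control callosum. Ace, which encodes angiotensin-converting enzyme (r of 0.75), had 186 and 74.9 CPM in MSA callosum against 17.5, 13.1 and 13 CPM in control callosum. In these 3 genes, as in Ttr, MSA library 1 was the higher one. The desmosomal gene Dsp (r of 0.72) went the other way, at 7.79 CPM in MSA library 1 and 16.8 CPM in MSA library 2. These examples were picked after their values were seen. Mfrp and C1qtnf5 overlap on the genome and had nearly the same counts, so their calls are 1 uncertain signal.

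Near the boundary, Msx1 lay just inside (r of 0.70), while Col9a3 (0.68) and Abca4 (0.67) lay just outside. Msx1os is antisense to Msx1, its r was 0.56, and without known strand the counts of that pair cannot be told apart. Of the 21 genes that followed neither, 5 were listed choroid plexus markers (Kcne2, Steap1, Trpv4, Car12 and Rdh5). That left 16 genes on no carry-over list and below the boundary, 15 higher and 1 lower.

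**Figure D2:**
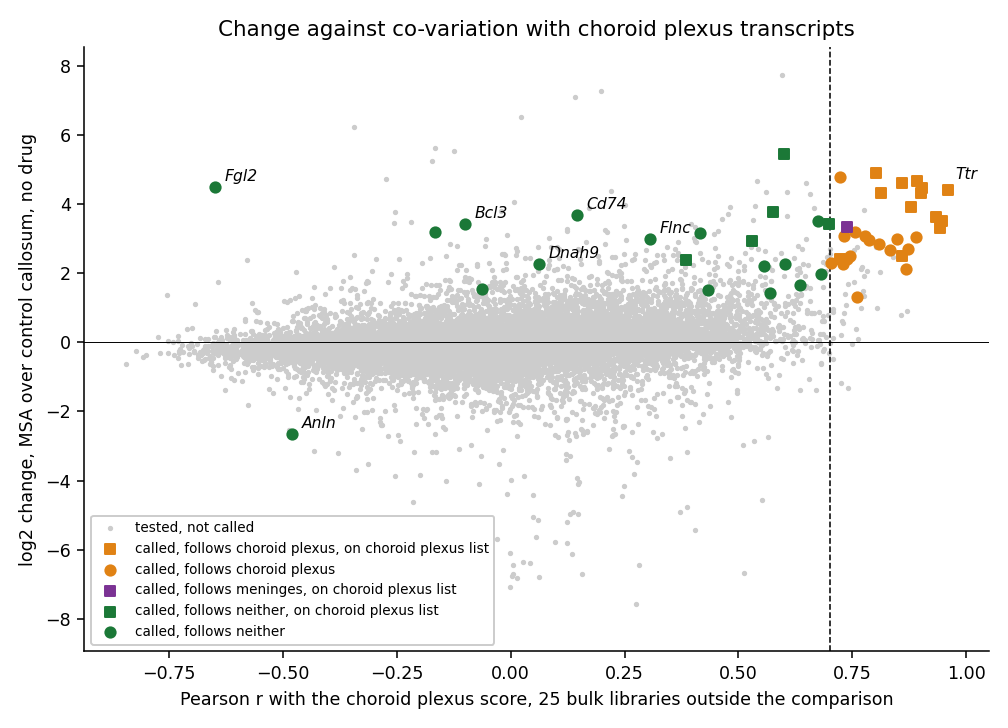
Log2 change of every tested gene in MSA over control callosum (vertical) against Pearson's r with the choroid plexus score over 25 other bulk libraries (horizontal); grey points did not pass, coloured points did, squares are listed choroid plexus markers, and the dashed line marks r of 0.7. Ttr lies at the right with r of 0.96, while Fgl2 (-0.65) and Anln (-0.48) lie far to the left.

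Fgl2 had the smallest adjusted p of all genes. It encodes a fibrinogen-like protein with prothrombinase and immunoregulatory activity, and lies at chromosome 5, 21372673 to 21378386 (mm10, NM_008013). It had 69.1 and 38.7 CPM in MSA callosum, against 2.05, 2.05 and 2.99 CPM in control callosum. The groups stood far apart, and the log2 change was 4.50 ± 0.31 (edgeR, adjusted p = 0.000448). Across the other libraries it ran opposite to choroid plexus RNA (r of -0.65). Within this comparison MSA library 1, with more choroid plexus RNA, was the higher one for Fgl2 too. Under PLX5622 it had 59.7 and 61.1 CPM in MSA callosum against 2.51 and 2.22 CPM in control callosum, a log2 change of 4.57 ± 0.37 (adjusted p = 0.00104). The difference between the changes on the 2 diets was -0.07 ± 0.46 on the log2 scale (adjusted p = 0.989). In striatum Fgl2 had 20.8, 11.2 and 1.49 CPM in MSA mice against 2.11 and 0.621 CPM in control mice, with overlapping groups (adjusted p = 0.999). In cortex it had 11, 5.11 and 3.89 CPM in MSA mice against 1.82, 2.59 and 6.16 CPM in control mice, again overlapping (adjusted p = 0.828). In that tissue 0 of 14600 genes passed. Sorted microglia held 23.7 ± 2.70 CPM in the MSA group (labelled MBP29_homo) and 17.6 ± 4.55 CPM in the control group (labelled MBP29_het; SD, n = 3 each).

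Of the other genes outside the choroid plexus set, 5 more had a positive change under PLX5622 of at least 1.5 on the log2 scale, a group picked after its values were seen. Flnc, which encodes the actin cross-linker filamin C, had 56.1 and 33.5 CPM in MSA callosum against 8.0, 3.69 and 5.29 CPM in control callosum (log2 change 3.01 ± 0.36, adjusted p = 0.00571). Under PLX5622 it had 33 and 42 CPM in MSA callosum against 13.8 and 10.7 CPM in control callosum, a change of 1.52 that did not pass (adjusted p = 0.334). Bcl3, a nuclear member of the IκB family, had 8.14 and 9.58 CPM in MSA callosum against 1.19, 0.684 and 0.644 CPM in control callosum (log2 change 3.43 ± 0.43, adjusted p = 0.00682). Ppl, which encodes the plakin periplakin, had 17.4 and 5.44 CPM in MSA callosum against 0.864, 1.23 and 1.70 CPM in control callosum (log2 change 3.18 ± 0.55, adjusted p = 0.0441). Cd109, which encodes a TGF-β co-receptor, changed by 3.16 ± 0.49 (adjusted p = 0.0251). None of these 4 passed under PLX5622, and the difference between the diets passed for none of them either.

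Cd74 encodes the invariant chain of MHC class II, the antigen-presenting complex of myeloid cells. It had 22.4 and 45.9 CPM in MSA callosum, against 4.00, 2.46 and 1.70 CPM in control callosum. Here MSA library 2, with less choroid plexus RNA, was the higher one. The log2 change was 3.68 ± 0.59 (adjusted p = 0.0295), the call was lost whichever of the 5 libraries was left out, and under PLX5622 it was 2.97 ± 0.80 (adjusted p = 0.398). On PLX5622 its levels were low in both genotypes, at 1.81 and 6.77 CPM in MSA callosum against 0.532 and 0.467 CPM in control callosum. Of the 7 tested MHC class II genes, which had a median log2 change of 2.25 without drug, Cd74 alone passed. H2-Aa, a class II chain gene, had 3.42 and 15.2 CPM in MSA callosum against 1.08, 0.41 and 1.01 CPM in control callosum (adjusted p = 0.239).

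The other 9 higher genes had changes near or below 0 under PLX5622, from -1.08 in Trpm3 to 0.17 in Dnah9. Trpm3 encodes a cation channel and had 173 and 92.1 CPM in MSA callosum against 21.0, 34.6 and 28.8 CPM in control callosum (log2 change 2.26 ± 0.34, adjusted p = 0.021, r of 0.60). Notch2, a Notch receptor gene, had 67.1 and 83.4 CPM in MSA callosum against 33, 24.7 and 26.8 CPM in control callosum (1.43 ± 0.21, adjusted p = 0.0174, r of 0.57). Dnah9, a dynein gene of motile cilia, had 19.3 and 27.2 CPM in MSA callosum against 5.19, 6.56 and 2.99 CPM in control callosum (2.28 ± 0.38, adjusted p = 0.0365, r of 0.06). Among the remaining 6 were Abca4, Msx1os, Fam84b, Tgfbr3 and Col9a3, with log2 changes from 1.53 (Tgfbr3) to 3.51 (Abca4).

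**Figure D3:**
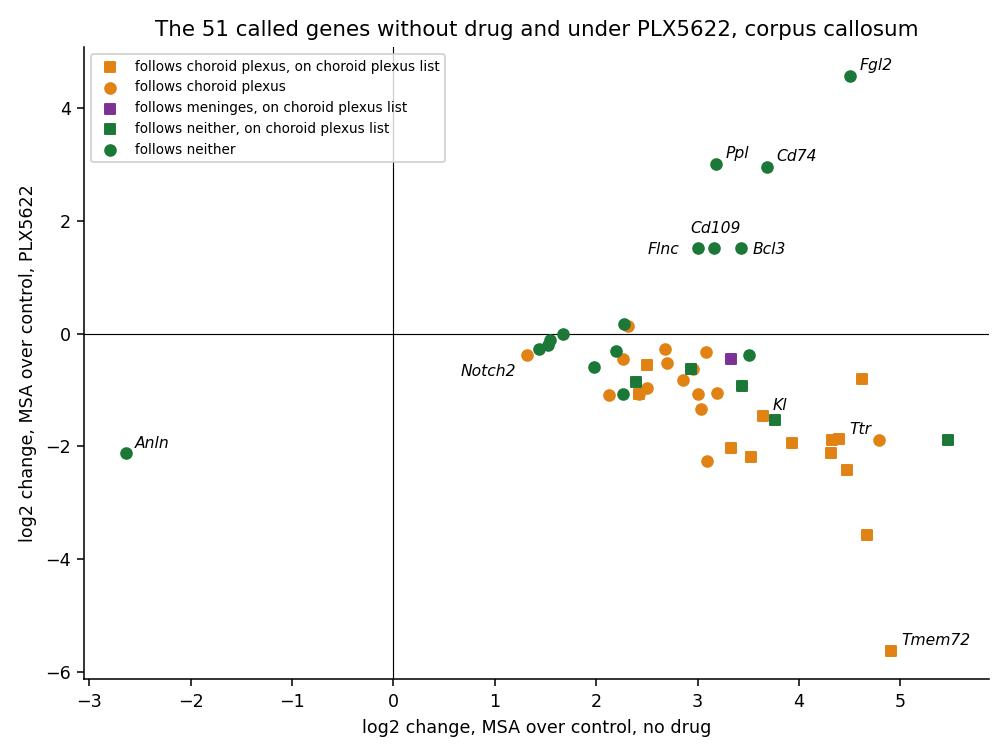
Log2 change of MSA over control callosum under PLX5622 (vertical) against the change without drug (horizontal) for the 51 genes that passed without drug; colours give the class and squares are listed choroid plexus markers. Of the 29 choroid plexus followers 28 lie below 0 under PLX5622, while Fgl2, Cd74 and Ppl lie near their values without drug and Anln is below 0 on both axes.

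On the other diet the choroid plexus difference ran the other way. Under PLX5622 the list summed to 950.2 and 1113 CPM in MSA callosum, against 2608 and 2428 CPM in control callosum, and its median log2 change was -1.45. None of the 23 passed there, while 28 of the 29 followers had a negative change. The genotype difference itself differed between the diets in 42 genes (0.264%), being larger without drug in 27 (0.17%) and smaller in 15 (0.0945%). It did so for Ttr, by 6.28 ± 0.60 on the log2 scale (adjusted p = 0.00513), and for Kl, by 5.10 ± 0.47 (adjusted p = 0.00513). In striatum without drug the list's median was 2.72 and in cortex -0.41, with 0 members past the threshold in either. The striatal list sums were 319, 1096 and 6042 CPM in MSA mice against 444 and 585 CPM in control mice, so MSA library 1 lay below both controls and MSA library 3 far above the rest. Without MSA library 3 the striatal median was 0.68, and without any 1 of the other untreated striatal libraries it was 2.48 to 3.38. The part of choroid plexus RNA in the 29 follower calls was not tested, and genotype and choroid plexus RNA cannot be told apart in these 5 libraries.

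When the choroid plexus score entered the fit as a covariate, 0 of 15881 genes passed, and 341 had an unadjusted p under 0.05. That is a smaller share than the 0.05 that would fall there with no true difference. The unadjusted p-values below are therefore given as description only. DESeq2 was not run with that covariate. The covariate widened the errors. Fgl2 then changed by 2.28 ± 1.05 (unadjusted p = 0.0561) and Anln by -3.37 ± 1.26 (unadjusted p = 0.0251). Cd74 changed by 5.61 ± 2.49 in that fit (unadjusted p = 0.0494). For the marker genes themselves a smaller change is built into this fit.

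Anln was the 1 lower gene that passed. Cyp2j12, picked after its values were seen, had a larger fall that did not pass (-3.84 ± 0.75, edgeR, adjusted p = 0.0929). Anln encodes anillin, an actin- and septin-binding scaffold of cytokinesis that also belongs to the septin filaments of mature myelin. The gene lies at chromosome 9, 22331214 to 22389206 (mm10, NM_028390). Anln had 32.2 and 25.7 CPM in MSA callosum, against 209, 124 and 220.2 CPM in control callosum. The log2 change was -2.64 ± 0.31 (edgeR, adjusted p = 0.00571), and the adjusted p was 0.098 without MSA library 1 and 0.068 without MSA library 2. Under PLX5622 Anln had 38.7 and 45.3 CPM in MSA callosum against 186 and 159 CPM in control callosum, and it was the 1 lower gene there too (-2.12 ± 0.31, adjusted p = 0.0282, background 0.0063%). In striatum it had 17.1, 11.5 and 6.48 CPM in MSA mice against 104 and 125 CPM in control mice (-3.29, adjusted p = 0.00489). In cortex it had 5.99, 2.21 and 3.22 CPM in MSA mice against 11.6, 21.2 and 27.1 CPM in control mice, without overlap. The log2 change there was -2.37 ± 0.48 and did not pass (adjusted p = 0.828), and 0 of the 14600 genes tested in cortex passed. In all 4 comparisons every MSA library thus lay below every control library. These tissues may come from the same animals, which the labels do not say.

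Few myelin genes passed the test. Of 24 mature oligodendrocyte genes Anln alone passed, 8 lay below all controls (background 18%), 9 had an unadjusted p under 0.05 and were lower (background 3.41%), DESeq2 called 2 lower (background 0.296%), 7 had a positive change, and the median log2 change was -0.50. The list summed to 24964 and 18227 CPM in MSA callosum against 37535, 20083 and 33790 CPM in control callosum, so the groups overlapped. Mbp, whose promoter drives the transgene and which encodes myelin basic protein, had 9597 and 6871 CPM in MSA callosum against 17580, 9191 and 14823 CPM in control callosum (log2 change -0.73 ± 0.40, adjusted p = 0.639). The ranges of the groups overlapped.

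The members nearest to Anln in size of change were Klk6 and Hapln2, named after their values were seen. Hapln2, a link protein gene of the node of Ranvier, had 57.2 and 38.7 CPM in MSA callosum against 208, 131 and 249 CPM in control callosum (-2.0 ± 0.42, adjusted p = 0.121). Klk6, a protease gene of mature oligodendrocytes, had 2.52 and 0.871 CPM in MSA callosum against 18.6, 5.33 and 6.07 CPM in control callosum (-2.37 ± 0.86, adjusted p = 0.463). Neither pair of groups overlapped. In striatum, where 5 of 14872 genes passed (0.0336%), both were among the 4 lower ones (0.0269%) with Anln, and the carnosine synthase gene Carns1 was the other. Hapln2 had 23.4, 21.1 and 14.2 CPM in MSA striatum against 101 and 116 CPM in control striatum (adjusted p = 0.0304). Klk6 had 0.488, 0.32 and 0 CPM in MSA striatum against 12.9 and 21.1 CPM in control striatum (adjusted p = 0.00489). Genes of striatal and cortical neurons are a sign of neighbouring tissue in the sample. Striatal projection neuron genes summed to 1195 and 1982 CPM in MSA callosum against 2289, 1084 and 3520 CPM in control callosum. Cortical glutamatergic neuron genes summed to 5531 and 7194 CPM in MSA callosum against 4589, 6213 and 3842 CPM in control callosum. Over the cortex libraries that sum ran from 4342 to 11713 CPM. The part of neighbouring tissue in the myelin values was not tested. SOX10's ACAATG lies in the windows of 4 of 17 matched members of the myelin list (23.5%), beside 14.3% of all genes with a promoter window. Hapln2 and Klk6 are among the 4 and Anln is not.

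Earlier stages of the lineage showed no call. The lineage transcription factors had 0 of 10 past the threshold (median 0.41), among them Olig2, with 126 and 140.4 CPM in MSA callosum against 112, 96.7 and 75.6 CPM in control callosum. Precursor and newly formed oligodendrocyte genes had 0 of 15 (median 0.25). Enpp6, a marker of newly forming oligodendrocytes, had 25.6 and 17.0 CPM in MSA callosum against 58.2, 28.8 and 44.9 CPM in control callosum (-1.01 ± 0.37, adjusted p = 0.464). Cholesterol synthesis genes, which supply myelin lipid, had 0 of 20 and a median of -0.17. At an unadjusted p under 0.05 edgeR gave 0 transcription factors, 3 higher (background 5.12%) and 1 lower precursor gene, and 2 lower cholesterol genes (background 3.41%), and DESeq2 called 0 in the 3 lists.

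The genes that oligodendrocytes are known to raise in disease had positive changes in 9 of 10 members (median 1.16), and 0 passed, with 6 at an unadjusted p under 0.05 (background 5.12%) and 4 called higher by DESeq2 (background 1.01%). This list shares members with the MHC class I, complement, reactive astrocyte and disease-associated microglia lists, among them H2-D1, C4b and Serpina3n. Its counts are therefore not independent of those lists. Bulk RNA does not say which cells these transcripts came from. C4b, complement component C4, came closest. It had 632 and 251 CPM in MSA callosum, against 99.4, 28.4 and 51.8 CPM in control callosum (2.90 ± 0.52, adjusted p = 0.0565). Every MSA library lay above every control, and MSA library 1 was the higher one, as in the choroid plexus genes, although r with that score was 0.16. With 1 library left out, the change ran from 2.09 without MSA library 1 (adjusted p = 0.587) to 3.48 without control library 1 (adjusted p = 0.0452). C4b also passed without MSA library 2 (3.41, adjusted p = 0.0394). In striatum C4b was the 1 higher gene that passed (0.00672%). It had 162, 154 and 117 CPM in MSA striatum against 54.0 and 45.0 CPM in control striatum (1.56, adjusted p = 0.0413). In cortex it had 45.6, 33.2 and 39.4 CPM in MSA mice against 10.2, 5.70 and 5.70 CPM in control mice (2.45, adjusted p = 0.359). Serpina3n, an acute-phase protease inhibitor gene, had 180 and 84.7 CPM in MSA callosum against 36.4, 10.3 and 12.3 CPM in control callosum (2.77 ± 0.54, adjusted p = 0.0907).

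**Figure D4:**
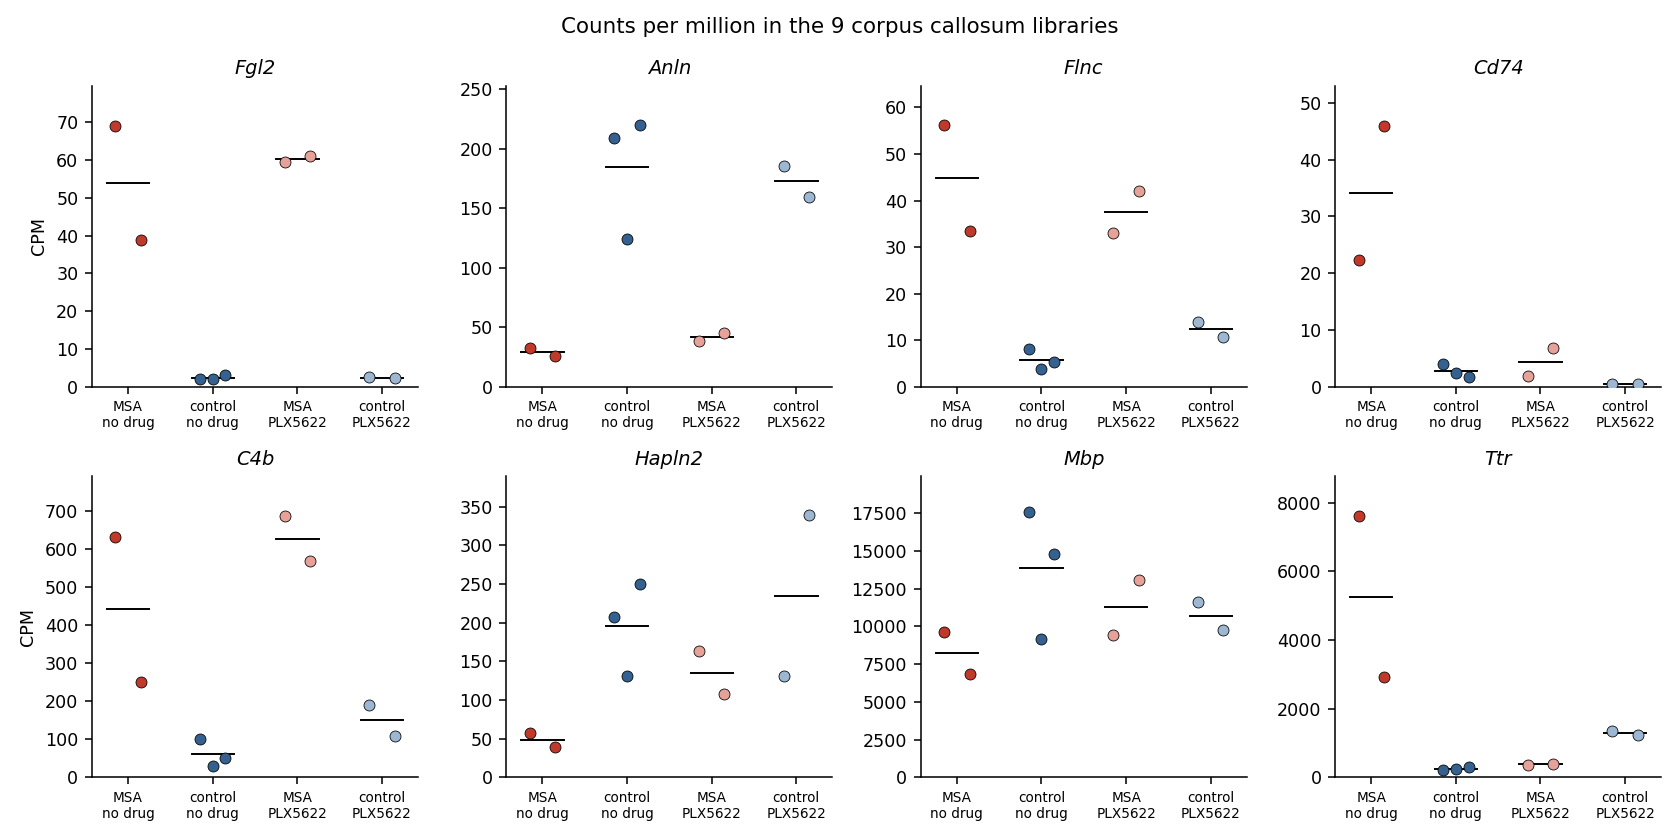
CPM of 8 genes in the 9 callosum libraries (points) with group means (lines); each diet has MSA left of control and every axis starts at 0. Fgl2 is at 38.7 CPM or more in the 4 MSA libraries and below 3 CPM in the 5 controls, Anln is at most 45.3 CPM in MSA and at least 124 CPM in controls, and Ttr is high in the MSA libraries without drug and higher in controls than in MSA under PLX5622.

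Immune and astrocyte lists had mostly positive changes and few calls. Homeostatic microglia genes had 0 of 25 past the threshold (0 with DESeq2, 9 higher at an unadjusted p under 0.05, background 5.12%) and a median of 0.65, with sums of 1478 and 1239 CPM in MSA callosum against 990.5, 873 and 889 CPM in control callosum. Csf1r, the receptor on which microglia depend, had 175 and 123 CPM in MSA callosum against 104, 79.0 and 58.4 CPM in control callosum (0.91 ± 0.37, adjusted p = 0.537). Of the 25, 19 had a positive and 6 a negative change, and 13 lay above all controls (background 17.2%) and 3 below all controls (background 18%). The fractalkine receptor gene Cx3cr1, picked after its values were seen, had 111 and 93.8 CPM in MSA callosum against 76.5, 55.0 and 59.4 CPM in control callosum (0.71 ± 0.23, adjusted p = 0.41). C1qb, a complement gene, had 111 and 95.8 CPM in MSA callosum against 52.1, 66.2 and 51.1 CPM in control callosum (0.90 ± 0.28, adjusted p = 0.371). The 3 below all controls were P2ry12, Tmem119 and Siglech. P2ry12, the purinergic receptor gene of resting microglia, had 37.1 and 46.1 CPM in MSA callosum against 49.3, 51.1 and 63.5 CPM in control callosum (-0.38 ± 0.31, adjusted p = 0.735). Tmem119 was at 30.0 and 29.2 CPM in MSA callosum against 35.4, 32.8 and 39.2 CPM in control callosum.

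Disease-associated microglia genes had 0 of 24 past the threshold and a median of 1.04. Both MSA libraries lay above all controls in 20 of them (background 17.2%), and 16 had an unadjusted p under 0.05 with MSA higher (background 5.12%). The list was not uniform. The 3 members with a negative change all lay below all controls (background 18%), down to -1.12. Of these 1 had an unadjusted p under 0.05 (background 3.41%). The lectin receptor gene Clec7a had 13.3 and 6.09 CPM in MSA callosum against 2.16, 0.41 and 1.15 CPM in control callosum (2.99 ± 0.60, adjusted p = 0.104). Lgals3, galectin-3, had 17.6 and 10.4 CPM in MSA callosum against 3.57, 0.957 and 1.84 CPM in control callosum (2.75 ± 0.58, adjusted p = 0.129). The chemokine gene Ccl4 had 51 and 4 counts in the MSA libraries and 0 counts in all 3 control libraries. MSA library 1 was the higher one in each of these 3 genes. DESeq2 called 5 of the 24 higher (background 1.01%).

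MHC class I genes had positive changes in 10 of 10 members (median 1.00) with 0 calls, interferon-stimulated genes a median of 0.49 with 0 of 28, and complement genes a median of 0.94 with 0 of 15. H2-D1, a class I heavy chain gene, had 94.0 and 78.1 CPM in MSA callosum against 37.8, 25.2 and 36.4 CPM in control callosum (1.40 ± 0.36, adjusted p = 0.23). Lgals3bp, an interferon-inducible gene, had 53.3 and 27.6 CPM in MSA callosum against 8.32, 11.9 and 7.27 CPM in control callosum (2.18 ± 0.54, adjusted p = 0.207). The groups did not overlap in either gene. At an unadjusted p under 0.05 edgeR had 6 of 10 class I, 7 of 28 interferon-stimulated and 6 of 15 complement genes higher (background 5.12%). DESeq2 called 1 of 10, 1 of 28 and 3 of 15 higher in those lists (background 1.01%). Border-associated macrophage genes, which choroid plexus and meninges also carry, had 0 of 4 tested members past the threshold and sums of 16.3 and 25.5 CPM in MSA callosum against 21.0, 21.7 and 20.5 CPM in control callosum.

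Reactive astrocyte genes had the highest median outside the choroid plexus and class II lists, 1.51, with 0 of 15 past the threshold, 9 higher at an unadjusted p under 0.05 (background 5.12%) and 3 called higher by DESeq2 (background 1.01%). Gfap, the filament gene raised in reactive astrocytes, had 2178 and 1069 CPM in MSA callosum against 954, 315 and 397 CPM in control callosum (1.56 ± 0.50, adjusted p = 0.384). Cd44, a hyaluronan receptor gene, had 24.5 and 13.7 CPM in MSA callosum against 6.48, 3.83 and 3.54 CPM in control callosum (2.09 ± 0.39, adjusted p = 0.0678). The list's median log2 difference between MSA library 1 and MSA library 2 was 1.09, near the 1.04 of the choroid plexus list. Without MSA library 1 its median was 0.97. Of its 15 tested members 0 followed choroid plexus and 1 followed meninges. Gfap had r of -0.37 with the choroid plexus score and Cd44 had r of -0.10. Homeostatic astrocyte genes had a median of 0.37 and pan-neuronal genes one of 0.05, with 0 calls in each.

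**Figure D5:**
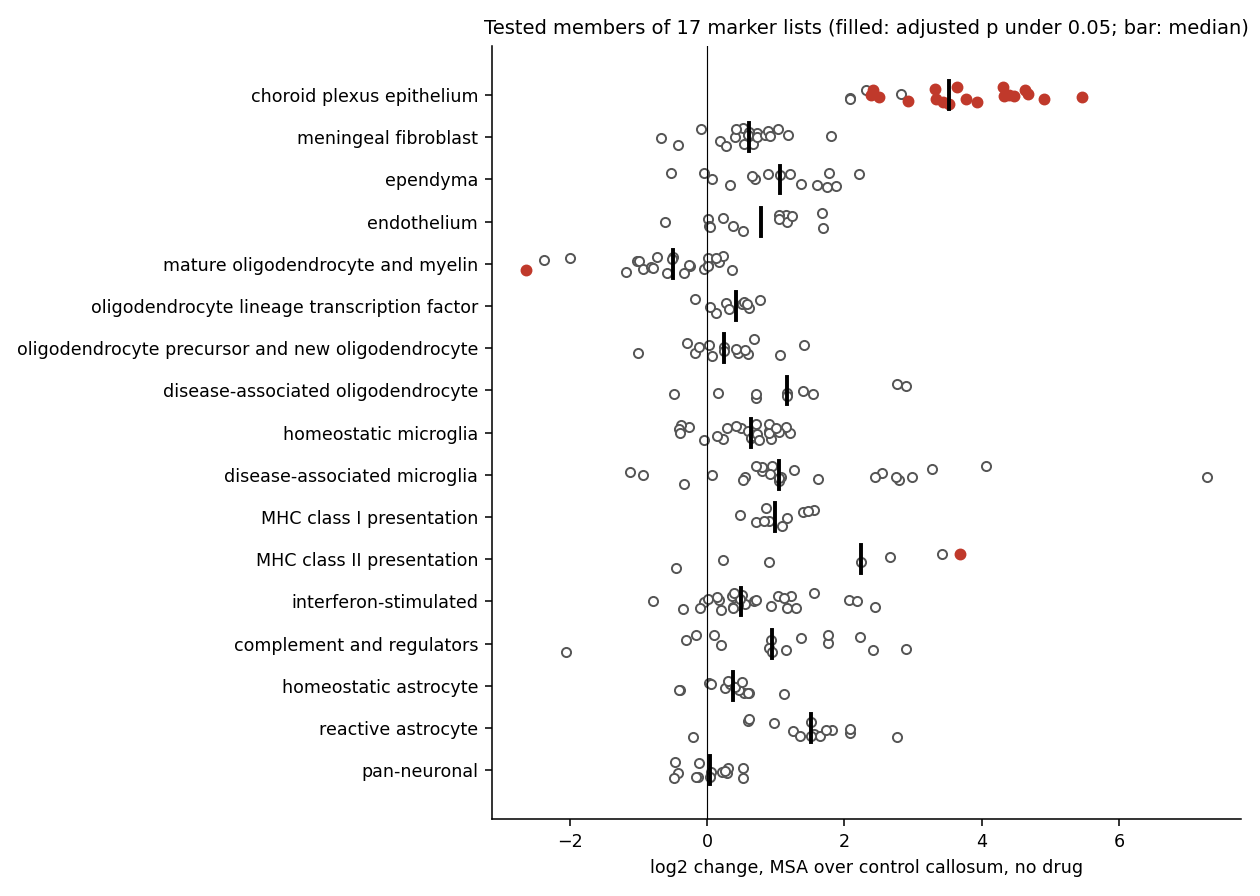
Log2 change of MSA over control callosum without drug for each tested member of 17 marker lists; filled points had an adjusted p under 0.05 and black bars are list medians. The choroid plexus list (median 3.53) stands right of 2 in all 23 members, Anln is the 1 filled point left of 0, and the immune and reactive astrocyte lists lie mostly right of 0 with Cd74 as their 1 filled point.

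Microglial genes, in contrast, differed between genotypes on PLX5622, where 31 of 15881 genes passed (0.195%), 30 of them higher in MSA (0.189%). Homeostatic microglia genes were 13 of them, with sums of 354 and 439.5 CPM in MSA callosum against 96.1 and 51.5 CPM in control callosum. C1qb had 25.6 and 29.5 CPM in MSA callosum against 1.67 and 0.584 CPM in control callosum there (4.42 ± 0.40, adjusted p = 0.0016). The difference between the diets itself was -3.52 ± 0.49 (adjusted p = 0.0144). For P2ry12 it was -3.76 (adjusted p = 0.0187), with a change of -0.38 without drug and of 3.39 under PLX5622. Of the genes that passed without drug, 2 also passed under PLX5622, namely Fgl2 and Anln.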

How the data were processed

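The authors deposited whole-number read counts for 24940 genes in 36 poly(A) RNA libraries, with 1 RefSeq transcript and coordinates per gene and, per the file headers, each library's total. STAR, HOMER and DESeq2 were used with mm10, per the submitters' processing notes; the sources used here give no version, counting setting or strand. A TPM table was not used, because counts carry the depth that the test needs.

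The 9 corpus callosum libraries were fitted in 4 groups (5 residual degrees of freedom). In R 4.3.3, edgeR 4.0.16 supplied the filter (filterByExpr, minimum count 10), the TMM factors and a robust quasi-likelihood test, 2-sided, at a Benjamini-Hochberg adjusted p under 0.05. Cortex and striatum were fitted likewise. The test was run on simulated counts beforehand. CPM is per 1e+06 counts assigned to genes, and log2 CPM has an offset of 0.5. The adjusted p is over all tested genes.

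The libraries, the 32 gene lists (448 genes, 1 absent from the table), the boundary for followers and the naming rule were chosen with earlier results of these data known. The rule names Mbp, Ttr and Csf1r, and further genes whose results are not reported here. It adds the 8 genes of largest change each way that passed, had a mean of 2 or more in log2 CPM and did not overlap, the 8 such genes of smallest p outside the followers and carry-over lists, and up to 4 members per list with a call or 2 without. Genes named outside it are said to be picked after their values were seen, as are P2ry12, Tmem119, Siglech, Gfap, H2-Aa, Enpp2, Otx2, Bcl3, Ppl, Cd109, Dnah9, Tgfbr3 and Col9a3.

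Alternatives were DESeq2 1.42.0, RLE size factors, a fit without the count filter, a block for the replicate number, choroid plexus, meningeal or assigned share as a covariate, 2 groups alone, each library left out, libraries under 70% assigned left out, TMM without carry-over genes, and Spearman's rho or a boundary of 0.5 for followers. Leaving out each untreated striatal library was added after seeing the data.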

Additional observations from a re-analysis of the deposited data

Results flagged for a closer look

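The change between MSA and control callosum differed between the diets, by the interaction test of edgeR, in 42 of 15881 genes (27 larger and 15 smaller without drug), and in 11 of the genes that the naming rule gives. In log2 units the change without drug exceeded that under PLX5622 by 8.24 for Slc4a5, 6.43 for Kcnj13, 6.28 for Ttr, 6.21 for F5, 5.86 for Folr1, 5.43 for Aqp1, 5.30 for Kcne2, 5.10 for Kl and 3.34 for Trpm3, with adjusted p between 0.00513 and 0.0246. All of these are choroid plexus markers or, in the case of Trpm3, a gene with r of 0.60 to them. In each, MSA was higher without drug and lower under PLX5622, where the list summed to 950.2 and 1113 CPM in MSA callosum and to 2608 and 2428 CPM in control callosum. The opposite sign was found for the microglial gene C1qb (-3.52, adjusted p = 0.0144) and for the cytokine receptor gene Csf3r (-5.14, adjusted p = 0.00774). Csf3r had 26.8 and 27.0 CPM in MSA callosum and 13.4, 7.93 and 12.6 CPM in control callosum without drug. Under PLX5622 it had 9.63 and 8.67 CPM in MSA callosum and 0.076 and 0.117 CPM in control callosum. Those control values are near the floor, so the size of its difference between the diets is uncertain. No such difference passed with the replicate block or with the choroid plexus covariate.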

How the results depend on the processing

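The count of 51 without drug was 51 with RLE size factors and with TMM without carry-over genes, 208 with DESeq2 (161 higher, 47 lower), 89 without the filter, 21 with the replicate block, 273 in a fit of the 2 groups alone (203 higher, 70 lower), 93 without libraries under 70% assigned, 147 with the assigned share as a covariate, 22 with the meningeal covariate and 0 with the choroid plexus covariate. Lower genes were 1.96% of the 51 calls, 22.6% of those of DESeq2 and 25.6% of those in the fit of 2 groups alone. Leaving out 1 library gave 7 to 54 calls. It was 29, 10 and 14 without control libraries 1, 2 and 3, 7 without MSA library 1 (the deeper one) and 54 without MSA library 2, and 4 genes (Kl, Ttr, Kcnj13 and Fgl2) passed each time. A fit without 1 MSA library assumes that the lone one varies like the other groups. The PLX5622 count of 31 became 122 with DESeq2, 59 without the filter, 3 with the block and 1 with the choroid plexus covariate. The interaction count of 42 became 108, 65, 0 and 0. The replicate numbers were not shown to pair the libraries: same-numbered deviations correlated at 0.06 and 0.02 over genes, for 2 pairs. The 29 followers among calls were 16 by Spearman's rho and 39 at a boundary of 0.5. C4b passed with the block (2.97, adjusted p = 0.0275) and with DESeq2 (2.89, adjusted p = 1.28e-06), and its adjusted p reached 1.00 with the choroid plexus covariate. Directions turned with the choroid plexus covariate for Csf1r (-0.19), Slc4a5 (-1.36), F5 (-0.45), Kcnj13 (-0.38), Trpm3 (-1.16), Msx1os (-0.21), Ocln (-0.79), Zfp488 (-0.034), Cd163 (3.43), H2-D1 (-0.042), Bst2 (-1.69), Cd4 (1.26), Hbb-bt (4.67) and Dusp1 (-0.18). They also turned for F13a1 without 1 library (-1.58 to 0.11, above 0 without control library 2 or MSA library 2), for Cd4 with the block (0.40) or the meningeal covariate (0.27), and for Hbb-bt without 1 library (-3.21 to 0.82, above 0 without MSA library 1). The cause was not tested. Low counts limit Cd163, F13a1, Hbb-bt and Ccl4. They also limit Klk6 (4 counts in MSA library 2) and Cyp2j12 (3 counts there). The same holds for Csf3r in control callosum under PLX5622 (0.076 and 0.117 CPM).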
